A study of Arabidopsis thaliana with 3 samples.

Results

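WRKY factors and the zinc finger repressor ZAT10 were measured in Arabidopsis thaliana leaves that overexpress the AP2/ERF factor WIN1. The members were all probe sets that the array annotation pairs with WRKY6, WRKY20, WRKY22, WRKY47, WRKY53 or ZAT10, which the annotation lists under its other name STZ. They came to 7 probe sets of 6 genes, out of 8247 probe sets on the array. WRKY6, WRKY20, WRKY22, WRKY47 and WRKY53 were each read by a single probe set, and ZAT10 by 2. Leaf RNA of 3 kinds of plant was hybridised to Affymetrix Arabidopsis genome arrays, with 1 array each. Lines 13 and 22 are transgenic lines in which the constitutive 35S promoter of cauliflower mosaic virus drives WIN1, and each array held RNA from the leaves of several T2 plants. The control array held leaf RNA pooled from several plants with an empty binary vector, although the control sample's title also calls it WT. All 3 kinds of plant are therefore transformed, and the labels give no accession, age or growth stage.

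WRKY proteins are a large plant family of transcription factors that bind the W-box, a promoter element common in genes of defence, wounding and leaf senescence, and many WRKY genes carry W-boxes in their own promoters. In leaves they act in a web of mutual activation and repression, switched on within minutes by pathogen signals or wounding and more slowly by ageing. ZAT10 is a zinc finger protein with an EAR repression motif, induced by salt, drought, cold and strong light. WIN1 itself is known for raising epidermal wax and cutin, and no probe set was paired here with its locus AT1G15360, so the level of the transgene was not analysed here.

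The values are linear intensities, brought to a common trimmed mean of 176.6. Ratios are on the log2(scaled intensity + 18.6) scale, where 18.6 is a pseudocount that shrinks the ratios of dim probe sets. Probe sets above the 30th percentile of mean log2 intensity, 5773 in all, were kept for testing, and the 7 WRKY and ZAT10 probe sets were among them. Over the kept probe sets the log2 ratio to the control had an SD of 0.40 in line 13 and 0.94 in line 22, so a ratio of a given size was much more common in line 22. Each line and the control gave 1 value, an SD here is that between the 2 lines, and the control's own spread is unknown. With bulk leaf RNA, fewer cells of a type and less RNA per cell cannot be told apart. Of the 10 listed leaf mesophyll genes, 3 were matched (RCA, LHCB4.1 and PSAE-1), with scaled intensities between 1204 and 4468. Their 5 probe sets had line 13 log2 ratios from -0.19 to 0.06 and line 22 log2 ratios from 0.48 to 0.88. All 5 belonged to the brightest of 5 equal groups of kept probe sets. The line 22 median of that group was 0.29, against -0.09 for all kept probe sets. Bright probe sets as a group thus also lay higher on that array, and the part of brightness in the mesophyll ratios was not tested. None of the 16 listed markers of guard cells, flowers, seeds or roots was matched, so the part of other cell types in the ratios was not tested.

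The first question was whether WIN1 overexpressors and control plants differed in their WRKY and ZAT10 transcripts. None of the 7 probe sets was at least 2-fold higher in both lines, against 0.866% of kept probe sets, and none was at least 2-fold lower in both, against 0.554%. None passed limma's two-sided test of both lines against the control after Benjamini-Hochberg adjustment, where 0.0346% of kept probe sets did, and the adjusted p was 1 for each. None had an unadjusted limma p under 0.05 either, against 129 of the 5773 kept probe sets. At so small a share, their absence among 7 probe sets does not set the members apart. The departures from the control were those of single lines: WRKY53 stood 2.21-fold above the control in line 13, the ZAT10 probe set 18216_at stood 3.29-fold above it in line 22, and WRKY47 and WRKY20 stood 3.51-fold and 4.02-fold below it in line 22. These are ratios of 1 array to 1 array of scaled intensities, without a replicate. WRKY20 in line 22 was dim, less than 2-fold above the pseudocount.

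**Figure D1:**
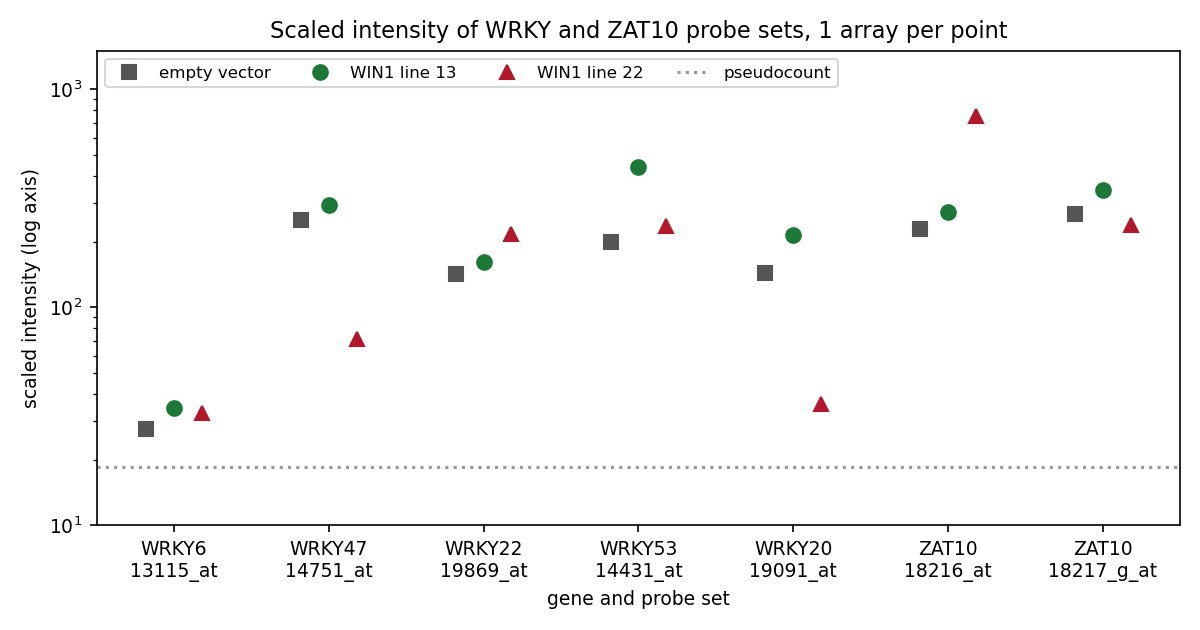
Scaled intensity (log axis) of each WRKY and ZAT10 probe set on the control array (squares), line 13 (circles) and line 22 (triangles), 1 array per point, with the pseudocount of 18.6 as a dotted line. Line 13 lies above the control for each probe set (for 4 of the 7 on the deposited values without scaling), while line 22 lies far below it for WRKY47 (71.8 against 252.2) and WRKY20 (35.9 against 144.3) and far above it for ZAT10 18216_at (753.1 against 229).

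WRKY53 (AT4G23810), a regulator that promotes the onset of leaf senescence and is induced early by stress, had a scaled intensity of 438.1 (line 13), 236.4 (line 22) and 198.2 (control). Line 13 was the high sample, and line 22 lay close to the control. The log2 ratios were 1.07 and 0.23, with a mean of 0.65 ± 0.594 (SD, n = 2 lines) and a limma SE of 0.745, so the 95% interval ran from -0.83 to 2.13 (limma adjusted p = 1). WRKY53 was the 1 member at least 2-fold higher in line 13, where 1.49% of kept probe sets were, and its ratio there was above 98.8% of them. In line 22 its ratio was above 65.7% of kept probe sets. Probe sets of similar brightness (the fourth of 5 equal groups) had an SD of 0.36 in line 13 and 1.0 in line 22. The line 13 ratio was under 2-fold with a pseudocount at the 40th percentile (0.96) and on the deposited values without scaling (0.79). Without scaling it was -0.53 in line 22, where the median of kept probe sets was -0.78.

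WRKY6 (AT1G62300), a senescence and defence regulator that also represses the phosphate exporter gene PHO1, was dim on each array. Its scaled intensities were 34.5 (line 13), 32.7 (line 22) and 27.6 (control), all less than 2-fold above the pseudocount. The order was line 13, line 22, control, with no step larger than 1.25-fold. The log2 ratios were 0.20 and 0.15, a mean of 0.18 ± 0.036 (SD, n = 2 lines), with a limma 95% interval from -1.13 to 1.48. The closeness of the lines leaves out the error of the control array, and the mean turned to -0.18 on the unscaled values. WRKY6 was the 1 member that a filter at the 50th percentile would set aside as dim.

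WRKY47 (AT4G01720) belongs to the same subgroup of the family as WRKY6. It had scaled intensities of 294.9 (line 13), 71.8 (line 22) and 252.2 (control). Line 13 and the control were near each other and line 22 was low. The log2 ratios were 0.21 and -1.58, a mean of -0.69 ± 1.27 (SD, n = 2 lines), and the limma 95% interval ran from -2.21 to 0.84. The SD was larger than the mean, and the lines had ratios of opposite sign, so the sign of the mean came from line 22.

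WRKY20 (AT4G26640), which belongs to the subgroup of WRKY proteins with a pair of WRKY domains, showed the same order of samples. Its scaled intensities were 214.8 (line 13), 35.9 (line 22) and 144.3 (control). The log2 ratios were 0.52 and -1.58, a mean of -0.53 ± 1.48 (SD, n = 2 lines), with a limma 95% interval from -2.07 to 1.01. Here too the lines had opposite signs, and the sign of the mean came from line 22. Line 22 was 5.99-fold below line 13 for WRKY20 and 4.11-fold below it for WRKY47, by scaled intensities. The 35.9 of WRKY20 in line 22 was dim, less than 2-fold above the pseudocount. With the pseudocount added, the log2 ratio of line 13 to line 22 was 2.10 for WRKY20. WRKY47 and WRKY20 were the 2 members at least 2-fold lower in line 22, where 16.4% of kept probe sets were, and their ratios were above 7.2% and 7.3% of them. No member was at least 2-fold lower in line 13, where 1.25% of kept probe sets were. The log2 ratio of WRKY20 in line 22 ranged from -1.12 to -2.21 over the settings tried, and that of WRKY47 from -1.23 to -2.29.

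WRKY22 (AT4G01250) acts downstream of the flagellin receptor FLS2 and its MAP kinase cascade, together with WRKY29, and takes part in dark-induced senescence. Its scaled intensities were 161.2 (line 13), 216.9 (line 22) and 142.6 (control). The steps between neighbouring samples were small, and line 22 was the highest, 1.52-fold above the control. The log2 ratios were 0.16 and 0.55, a mean of 0.35 ± 0.275 (SD, n = 2 lines), with a limma 95% interval from -1.14 to 1.84. On the deposited values without scaling the mean was -0.17.

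**Figure D2:**
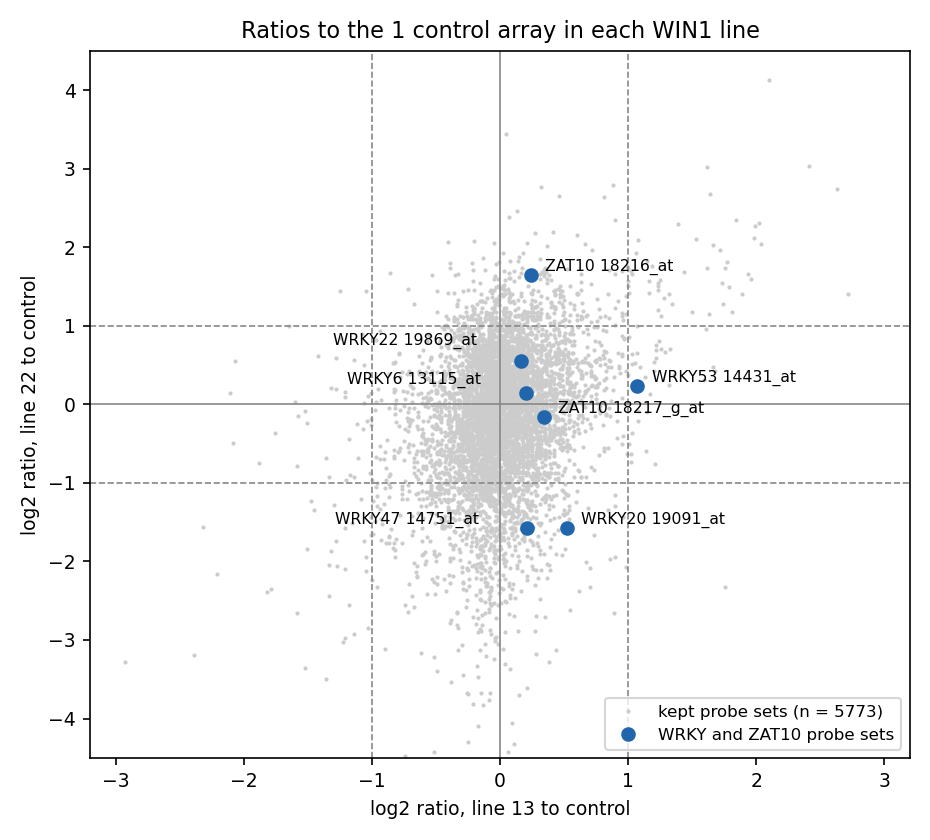
Log2 ratio to the control in line 13 (horizontal) and line 22 (vertical) for the 5773 kept probe sets (grey, 10 of them outside the plotted range) and the WRKY and ZAT10 probe sets (blue), with dashed lines at 2-fold. Both axes use the 1 control array; no blue point lies beyond 2-fold in both lines, and the grey points are spread more widely in line 22 (SD 0.94) than in line 13 (SD 0.40).

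ZAT10 (AT1G27730) was the only member read by more than 1 probe set, and its probe sets disagreed in line 22. Probe set 18216_at had scaled intensities of 273.2 (line 13), 753.1 (line 22) and 229 (control). Line 22 was the high sample, 2.76-fold above line 13. Probe set 18217_g_at had 346 (line 13), 238.6 (line 22) and 269 (control), so that line 22 was its lowest sample. In line 13 the log2 ratios of the probe sets were close, 0.24 for 18216_at and 0.34 for 18217_g_at. In line 22 they were 1.64 and -0.16, a gap of 1.80. The line 22 ratio of 18217_g_at turned to 0.23 with common-median scaling and 0.03 with quantile normalization, which put line 22 above the control. The means over the lines were 0.94 ± 0.992 for 18216_at and 0.09 ± 0.356 for 18217_g_at (SD, n = 2 lines), with limma 95% intervals from -0.55 to 2.42 and from -1.38 to 1.56. Probe set 18216_at was the 1 member at least 2-fold higher in line 22, where 7.38% of kept probe sets were, and its ratio was above 98.6% of them. Without scaling that ratio was 0.85, under 2-fold, where the line 22 median of kept probe sets was -0.78. It was above 2-fold under each other setting tried, up to 2.05 with common-median scaling. Since the probe sets disagreed in line 22, they do not show a change in its ZAT10 transcript.

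The gap between the ZAT10 probe sets had counterparts in other genes. The array holds pairs of probe sets with neighbouring numbers, a plain one ending in _at and a partner ending in _g_at, and 39 such pairs were kept and paired with 1 gene, ZAT10 included. In line 22 the plain probe set had the higher ratio in 34 of the 39 pairs, with a median gap of 0.99, and 22 pairs differed at least 2-fold. In line 13 it was higher in 17 of 39, with a median gap of -0.05, and no pair differed 2-fold. The plain probe sets of these pairs had a median log2 ratio of 0.65 in line 22 and their partners -0.16, against -0.13 for all 4323 kept probe sets that end in plain _at. Among all 136 kept pairs with neighbouring numbers, named or not, the plain one was higher in 113 in line 22 and in 52 in line 13. The gap of ZAT10 in line 22 was reached or passed, with the plain probe set higher, by 6 of the 39 named pairs, counting ZAT10. Gaps of 1.84, 2.07 and 2.12 with the partner higher are not in that count. The ratio of 18216_at itself was reached or passed by the plain probe sets of 4 pairs, counting ZAT10. Disagreement in line 22 was not limited to this class. The largest gaps among genes with 2 kept probe sets, 4.79 and 4.61, were outside it. Over all 98 such genes, which include genes of these pairs such as ZAT10, the median gap was 1.23 in line 22 and 0.17 in line 13. The line 22 gap of ZAT10 was reached or passed, in either direction, in 29 of the 98, counting ZAT10. The WRKY genes were each read by 1 probe set, so their line 22 ratios, such as the -1.58 of WRKY47 and WRKY20, have no other probe set to set beside them. The 90th percentile of the gaps was 2.65 in line 22. The comparison of plain and partner probe sets was chosen after the values had been seen, and the part of this probe set class in the ZAT10 ratio was not tested.

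**Figure D3:**
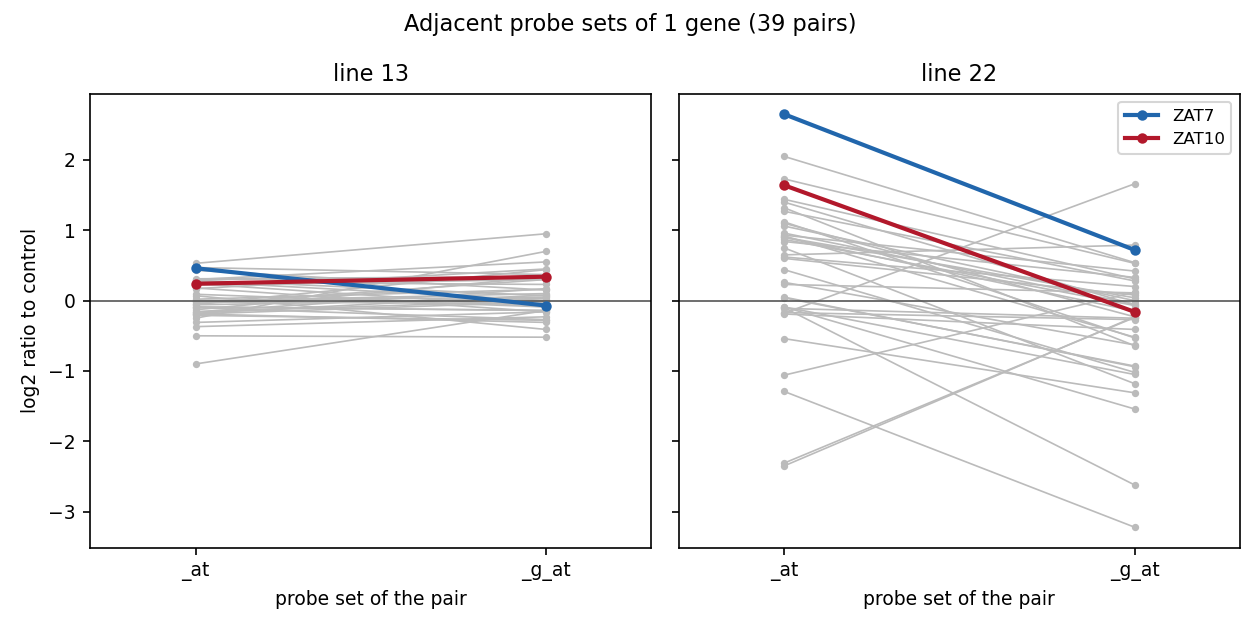
Log2 ratio to the control of the plain (_at) and partner (_g_at) probe sets of 39 same-gene pairs, joined by a line per pair, in line 13 (left) and line 22 (right), with ZAT10 in red and ZAT7 in blue. In line 22 the plain probe set is higher in 34 of 39 pairs (1.64 against -0.16 for ZAT10), and in line 13 in 17 of 39.

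The relatives of these genes that could be named were few. Of 67 other WRKY genes in the gene table, 3 were matched, by 4 probe sets, and 2 of those, both of ZAP1, were kept. ZAP1 (AT2G04880), also known as WRKY1 and of the same subgroup as WRKY20, had scaled intensities of 96.2 (line 13), 200.2 (line 22) and 103.6 (control) by probe set 18318_at. Its partner 18319_g_at gave 43.7, 67.7 and 49.9. The line 22 log2 ratios were thus 0.84 and 0.33, again higher in the plain probe set. WRKY42 (14.3, 14 and 15.2 in line 13, line 22 and the control) and WRKY29 (10.7, 6.8 and 11.5) lay under the pseudocount on each array and were not tested. WRKY29 was also the only matched member of the 9 genes of the MAP kinase path to WRKY22.

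ZAT7 (AT3G46090), a zinc finger repressor related to ZAT10 and linked to salt stress, was the 1 matched gene of 8 other ZAT and AZF genes. Its probe set 15778_at had scaled intensities of 53.5 (line 13), 308.9 (line 22) and 33.7 (control), log2 ratios of 0.46 and 2.65. Its partner 15779_g_at had 76, 144.5 and 80.5, log2 ratios of -0.07 and 0.72. Line 22 was the high sample for both probe sets of ZAT7, with a gap of 1.93 between them. Neither passed limma (adjusted p = 1), although 15778_at had an unadjusted p of 0.0465 by limma. ZAT7 and ZAT10 thus both had line 22 highest by their plain probe set. By the partner, ZAT7 alone had line 22 above the control at the common trimmed mean, and for ZAT10 that depended on the scaling.

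Of 16 listed senescence genes, SAG29 (AT5G13170), a sugar transporter gene that is induced in ageing leaves, was the 1 matched. It had scaled intensities of 7.4 (line 13), 51.9 (line 22) and 59.3 (control), so line 13, in which WRKY53 was highest, was the low sample. Its log2 ratios were -1.58 and -0.15, and the line 13 value lay under the pseudocount, which sets the size of the ratio. No gene was matched of the 20 touch, wounding and jasmonate genes, the 10 reactive oxygen genes or the 3 reported targets of WRKY6. The lists kept 5 probe sets of mesophyll genes, 2 of ZAT7, 2 of ZAP1 and 1 of SAG29. None of them passed limma after adjustment, where 0.0346% of all kept probe sets did. None was at least 2-fold higher (0.866% of kept probe sets) or lower (0.554%) in both lines. With so few probe sets and such small shares, this does not set the lists apart.

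The lines were then compared with each other. WRKY47, WRKY20 and ZAT10 18216_at were at least 2-fold apart between the lines, 3 of 7 members, against 21.9% of kept probe sets. The log2 ratio of line 13 to line 22 was 1.79 for WRKY47, 2.10 for WRKY20 and -1.40 for ZAT10 18216_at, against 0.84 for WRKY53, 0.50 for ZAT10 18217_g_at, -0.39 for WRKY22 and 0.05 for WRKY6. The line difference was larger in size than that of 96.8% of kept probe sets for WRKY20 and 94.5% for WRKY47. With 1 array per line these differences have no replicate check, and the SD of the difference over kept probe sets was 0.90.

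In line 13 the 7 probe sets had log2 ratios above 0, from 0.16 to 1.07, with a median of 0.24 against 0.01 for kept probe sets. A ratio above 0 was found in 50.9% of kept probe sets. The direction depends on the scaling, since 4 of the 7 were above 0 on the deposited values. WRKY6 had a deposited 35.17 in line 13 against 35.05 in the control. Each of the 7, which include both ZAT10 probe sets, was above the median of kept probe sets under each setting tried. Scaling an array moves its probe sets and their median together, so that count could hardly change with the scaling. In line 22, 4 of the 7 were above 0 (45.7% of kept probe sets), from -1.58 to 1.64, with a median of 0.15 against -0.09. That count was 5 with common-median scaling or quantile normalization and 1 without scaling. In line 22, 4 were above the median of kept probe sets under each setting, a count that scaling could likewise hardly change. The ratios of the lines share the control array, so an error of that array enters both.

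**Figure D4:**
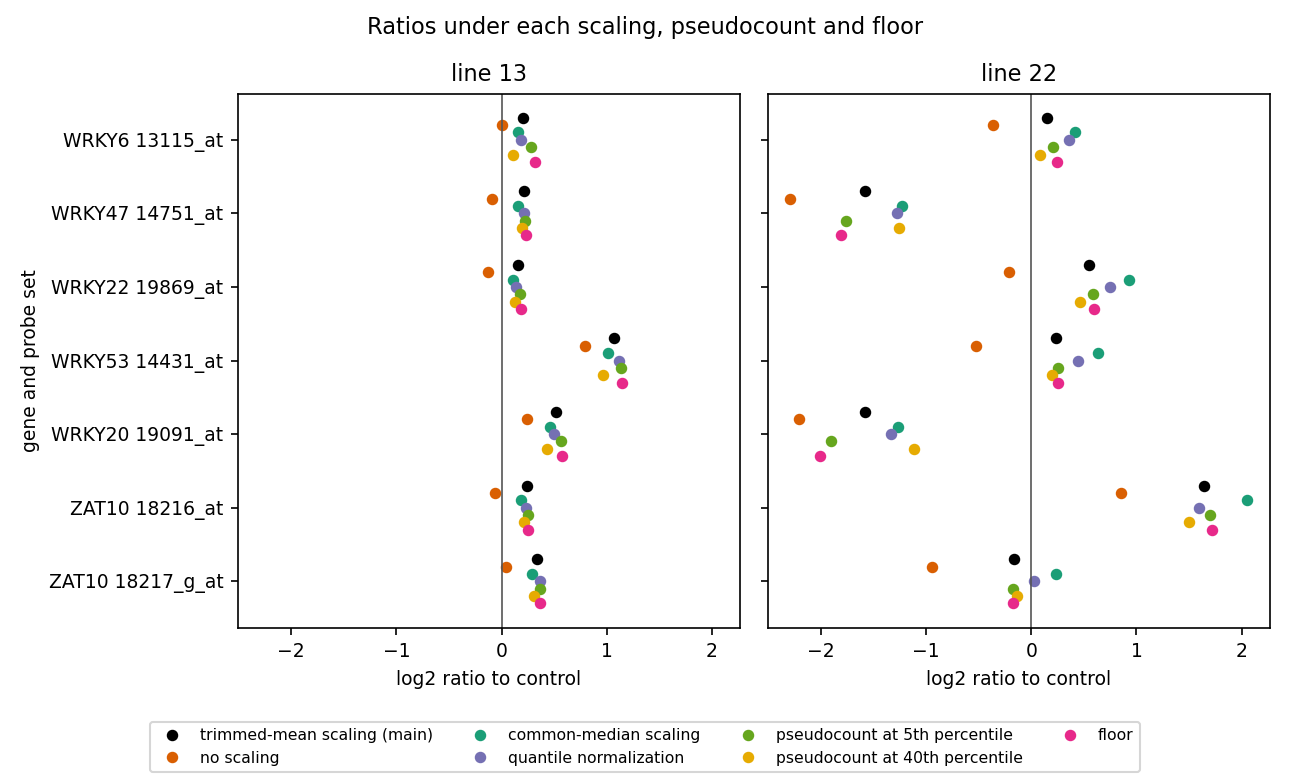
Log2 ratio to the control of each WRKY and ZAT10 probe set in line 13 (left) and line 22 (right) under each scaling, pseudocount or floor, 1 colour per setting. Leaving out the scaling moves each ratio down, whereas WRKY53 stays between 0.79 and 1.14 in line 13 and WRKY47 and WRKY20 stay below -1 in line 22.

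Likeness of pattern was measured as the Euclidean distance between pairs of log2 ratios (line 13, line 22), over 3 arrays and up to 2597 other kept probe sets with a named gene. For WRKY53, AT2G21720 (log2 ratios 1.06 and 0.18, distance 0.055) and AT4G39840 (1.13 and 0.35, distance 0.13) were nearest, and 1 probe set lay within 0.1. For WRKY20 they were AT1G30640 (0.54 and -1.61, distance 0.041) and AT4G18950 (0.42 and -1.65, distance 0.12). WRKY47 had 12 probe sets within 0.1, the nearest AT2G35880 and AT4G21720, WRKY22 had 33, the nearest AT2G44060 and AT1G65220, and WRKY6 had 45, the nearest AT2G32970 and AT4G34090. ZAT10 18217_g_at had 28 within 0.1. For ZAT10 18216_at no probe set lay within 0.1, and the nearest were AT2G22420 and AT2G33255, both at 0.11. AT2G22420 appeared again through its other probe set among the nearest to ZAT10 18217_g_at (distance 0.040), after AT2G40960 (0.031), so its probe sets disagreed in line 22 as well, with 1.66 for the _g_at one and -0.18 for the plain one.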

How the data were processed

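Leaf RNA of 2 WIN1 lines and 1 empty-vector control was measured on 3 arrays. The authors deposited linear intensities, 1 per probe set, with 13.6% to 16% of an array at or below 0 and medians of 70.2 (line 13), 35.2 (line 22) and 84.1 (control). Per the file headers the arrays shared a chip lot and a scan session; for the summary of probes and the background step, the method is not given in the sources used here. Arrays were multiplied by 0.981, 1.40 and 0.788 to a common mean, trimmed by 2% at each end; values below 0 were set to 0 and the pseudocount (20th percentile of positive values) was added. limma (version 3.58.1, R 4.3.3; lmFit, eBayes with trend) tested 5773 kept probe sets across both lines and the control. It has 1 residual degree of freedom, from the spread between the lines, and assumes that the lone control varies like them, so its p-values rest mostly on the pooled spread (median prior degrees of freedom 85.3). The lines' own ratios have no test. The procedure was also run on simulated data with the same spread on each array. In the measured data the log2 ratios had an SD of 0.40 in line 13 and 0.94 in line 22. The simulation therefore does not test the fit under such a difference. Names came from the array annotation through a RefSeq gene table (TAIR10.1): 3794 probe sets had 1 gene, 70 several and 4383 none. An unnamed probe set is not without a gene. No coordinates or sequences are given, as the files name no build and no sequences were used here. Members and lists were chosen with earlier results of these data known. Named genes were the members, the matched listed genes and the 2 nearest genes of each member. The labels do not say whether the plants were grown separately, so p-values measure the spread between these arrays only. Alternatives covered scaling, pseudocount, floor, filter, eBayes settings, fold thresholds and each line alone.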

Additional observations from a re-analysis of the deposited data

How the results depend on the processing

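No paired analysis was possible because only 1 control array exists to set against 2 lines. With either line left out limma cannot be fitted. No WRKY or ZAT10 probe set passed adjusted p under any setting (limma adjusted p from 0.964 to 1). Over all probe sets, the 2 past adjusted p became 0 with quantile normalization, a floor or no filter (60, 43 and 307 at an unadjusted p under 0.05), 1 with no trend, robust eBayes, a pseudocount at the 5th percentile or common-median scaling, and 4 with a pseudocount at the 40th. The 82 that were 2-fold from the control in both lines (50 higher) became 129 (22 higher) without scaling, 39 and 147 under the higher and lower pseudocounts, 146 with a floor (66 higher), 47 with a filter at the 50th percentile, 275 and 26 at 1.5-fold and 3-fold, and 158 to 1372 in single lines. Without scaling the mean log2 ratios to the control turned to -0.18 for WRKY6, -0.17 for WRKY22 and -0.45 for ZAT10 18217_g_at, and the ratio of line 13 to line 22 turned to 0.08 for WRKY22. The latter turned for WRKY6 to -0.26 with common-median scaling and -0.19 with quantile normalization. By single lines the ratio to the control ran from -1.58 to 0.21 for WRKY47, from -1.58 to 0.52 for WRKY20 and from -0.16 to 0.34 for ZAT10 18217_g_at. The mean of ZAT10 over its probe sets was 0.51, against 0.94 and 0.09 by each alone. In line 22 the plain probe set was higher in 87.2% of same-gene pairs. That share was 82.1% to 92.9% in settings added after seeing the data. Scaling an array moves both probe sets of a pair nearly alike, so the share could change little with the scaling. A filter or fold threshold alters counts by its own construction; the cause of the other shifts was not tested. Precision is limited by the number of arrays.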
